A study of Sus scrofa with 5 samples.

Results

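The genes ME1, PGD, IDH1 and SLC25A1 provide NADPH and cytosolic citrate for the making of fatty acids (FAs), and their transcripts are described here across 5 pigs. They were chosen by name, and every probe set annotated with exactly 1 of these symbols was taken, which gave 5 probe sets for 4 genes among 6765 genes with a probe set of 1 symbol. ME1 had 2 probe sets and the other genes 1 each, so no gene of the set was missing from the array. The material was backfat of 5 female pigs of an Iberian × Landrace backcross, hybridized to Affymetrix porcine arrays with 1 array per animal. The study had sorted the animals into H and L by a principal component of carcass and muscle FA traits, with more polyunsaturated FAs in the muscle of H and more saturated and monounsaturated FAs in that of L. The animals titled BC4, BC5 and BC6 formed the H group (n = 3), and BC2 and BC3 the L group (n = 2). All shared a cereal-based commercial diet fed ad libitum and a similar age at slaughter, after fasting, and sibs were kept apart within a group. A further L animal of the study was not analysed here. The groups are thus extremes of a natural range in muscle FAs and carry no treatment or engineered allele, and with so few animals a single pig weighs heavily in each mean.

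FA synthesis takes place in the cytosol and needs acetyl units and reducing power. The acetyl units leave the mitochondrion as citrate through SLC25A1, the citrate carrier of the inner membrane, and are released in the cytosol by ATP citrate lyase (ACLY). The reducing power is NADPH, which FASN, the fatty acid synthase, consumes at each round of elongation. It comes from the oxidative pentose phosphate pathway, in which PGD is the 6-phosphogluconate dehydrogenase. It comes as well from ME1, the cytosolic malic enzyme that turns malate into pyruvate, and from IDH1, the cytosolic NADP-dependent isocitrate dehydrogenase. In pigs, adipose tissue is the main site of FA synthesis, so these enzymes are of interest in backfat.

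The array values are on the log2 scale, with a floor of 2.17 that marks no measured level, and the array medians ran from 4.21 to 4.29. The adipocyte gene FABP4, a FA carrier, lay between 15.36 and 15.49 on all arrays. The liver genes SERPINA1, TTR, AHSG and APOC3 were at or near the floor, at most 2.99, and ALB reached at most 4.69. APOA1, an apolipoprotein gene of the same liver list, lay between 11.29 and 12.57 on all arrays. Of the other adipocyte markers, PNPLA2 lay at 13.15 to 13.56, LPL at 12.84 to 14.01 and LIPE at 12.12 to 12.40. ADIPOQ lay at 9.09 to 12.20, and LEP varied most, from 4.41 to 10.48. An extraction note in the labels names liver where the tissue label gives backfat. The high adipocyte markers and the low liver genes other than APOA1 go with the tissue label, and the samples were taken as backfat. All 5 probe sets of the members lay well above the floor on each array. Each difference is the mean of H less that of L, in log2 units, so that a negative value means a lower mean in H.

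Across the 4 genes, the means of H lay below those of L by 0.45 to 0.86 on the log2 scale. This difference was smaller in each gene than the gap between the L animals BC2 and BC3, at 0.65 to 2.32. It was also smaller than the range within H in ME1, IDH1 and SLC25A1, but larger than that range in PGD, 0.61. In each gene the L animal BC2 had the highest value and the H animal BC4 the next, above the other L animal, BC3. Among 5831 genes whose values differed between arrays, 8.37% had BC2 highest and BC4 next, and 45.8% had BC4 above BC3. The groups therefore overlapped in all 5 probe sets. In limma, 0 of 23999 probe sets (0%) met all of the limits set, which were 0.01 for the p-value, 0.1 after adjustment and 1.2 for the fold. At an unadjusted p under 0.05 there were 762 (3.18%), 1.58% lower and 1.6% higher in H, and 0 of the 5 probe sets of these genes were among them.

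ME1 varied most among the 4 genes. Its brighter probe set had values of 13.10 on BC2 and 11.27 on BC3 in the L group, and of 12.40 on BC4, 10.62 on BC5 and 10.96 on BC6 in the H group. BC2 and BC4 were high and the other animals low, whatever their group. The mean was 11.33 ± 0.944 (SD, n = 3) for H against 12.18 ± 1.29 (SD, n = 2) for L. They differed by -0.86 (standard error 0.927, 95% interval -3.64 to 1.93, adjusted p = 1 from limma). Within the L group alone, BC2 exceeded BC3 by 1.83, or 3.55-fold, and within the H group BC4 exceeded BC5 by 1.78, or 3.44-fold. Either gap inside a group was thus larger than the gap between the group means.

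The other ME1 probe set gave values of 12.49 on BC2 and 9.21 on BC3, and of 11.05 on BC4, 9.20 on BC5 and 9.23 on BC6. Here BC3, BC5 and BC6 were nearly level, while BC4 and, further up, BC2 stood clear of them. Its difference between groups was -1.02 (standard error 1.38, 95% interval -5.15 to 3.11, adjusted p = 1 from limma). Both probe sets of the gene thus had the same highest and next animal, with a range over the animals of 2.48 in the brighter and 3.29 in the other. The paper reported lower ME1 expression in H by RNA-Seq, in a comparison that held a further L animal.

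PGD, of the pentose phosphate pathway, had values of 10.55 on BC2 and 8.49 on BC3 in L, and of 9.07 on BC4, 8.76 on BC5 and 8.45 on BC6 in H. A single animal, BC2, was far above the rest, and the 3 H animals spanned only 0.61. The mean was 8.76 ± 0.306 (SD, n = 3) for H against 9.52 ± 1.45 (SD, n = 2) for L. The difference was -0.76 (standard error 0.756, 95% interval -3.03 to 1.51, adjusted p = 1 from limma).

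IDH1 had values of 12.78 on BC2 and 12.13 on BC3 in L, and of 12.66 on BC4, 11.49 on BC5 and 11.86 on BC6 in H. BC4 lay only 0.12 below BC2, and both L animals were above BC5 and BC6. The mean was 12.00 ± 0.596 (SD, n = 3) for H against 12.45 ± 0.458 (SD, n = 2) for L. They differed by -0.45 (standard error 0.478, 95% interval -1.88 to 0.99, adjusted p = 1 from limma). This was the only gene of the 4 in which the H animals varied more than the L animals, and its whole range, 1.28, was the narrowest.

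SLC25A1, the citrate carrier, had values of 10.24 on BC2 and 7.92 on BC3 in L, and of 9.04 on BC4, 7.90 on BC5 and 8.36 on BC6 in H. BC3 of the L group and BC5 of the H group were nearly level, while BC2 exceeded BC3 by 2.32, or 4.99-fold. The mean was 8.43 ± 0.573 (SD, n = 3) for H against 9.08 ± 1.64 (SD, n = 2) for L. The difference was -0.65 (standard error 0.912, 95% interval -3.38 to 2.09, adjusted p = 1 from limma).

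**Figure D1:**
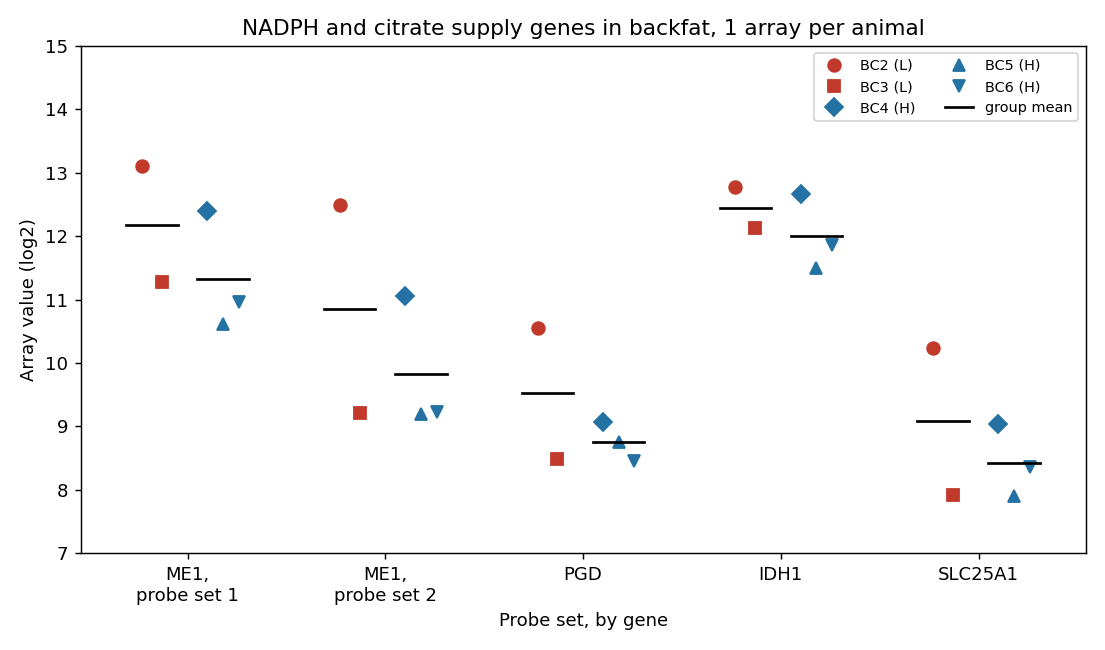
Array values (log2, vertical axis) of the 5 probe sets of ME1, PGD, IDH1 and SLC25A1 (horizontal axis), 1 point per animal, red for L (n = 2) and blue for H (n = 3), with a black line at each group mean. BC2 is highest and BC4 next in each probe set, and the groups overlap in all 5.

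The widths of the intervals show how little the group contrast of these genes could resolve. For ME1 the interval ran from a value in H lower by 3.64 to a value higher by 1.93 on the log2 scale, so neither a large decrease nor a moderate increase lay outside it. That of IDH1, the narrowest of the 4, ran from -1.88 to 0.99. A p-value above the threshold does not show that the groups had equal levels of these transcripts. In a bulk sample such as this, fewer adipocytes and less RNA per adipocyte cannot be told apart either.

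The group difference rested largely on BC2. Without this animal the difference turned to 0.06 in the brighter ME1 probe set, 0.27 in PGD and 0.51 in SLC25A1, and shrank to -0.12 in IDH1. In the other ME1 probe set it turned to 0.62. Without BC3, the other L animal, the difference was -1.77 in the brighter ME1 probe set, -1.79 in PGD, -0.77 in IDH1 and -1.81 in SLC25A1. In PGD the unadjusted p was then 0.0224 and the adjusted p 0.427 from limma, in a fit that assumes that the lone L animal varies like the H animals. Leaving out BC4 moved ME1 to -1.39 and IDH1 to -0.78, and leaving out BC5 moved IDH1 to -0.19, SLC25A1 to -0.38 and ME1 to -0.50. Array weights, which count each array by how well it follows its group, brought the difference of ME1 to -0.54 and that of IDH1 to -0.25. No gene of the 4 passed the threshold in any of these fits.

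**Figure D2:**
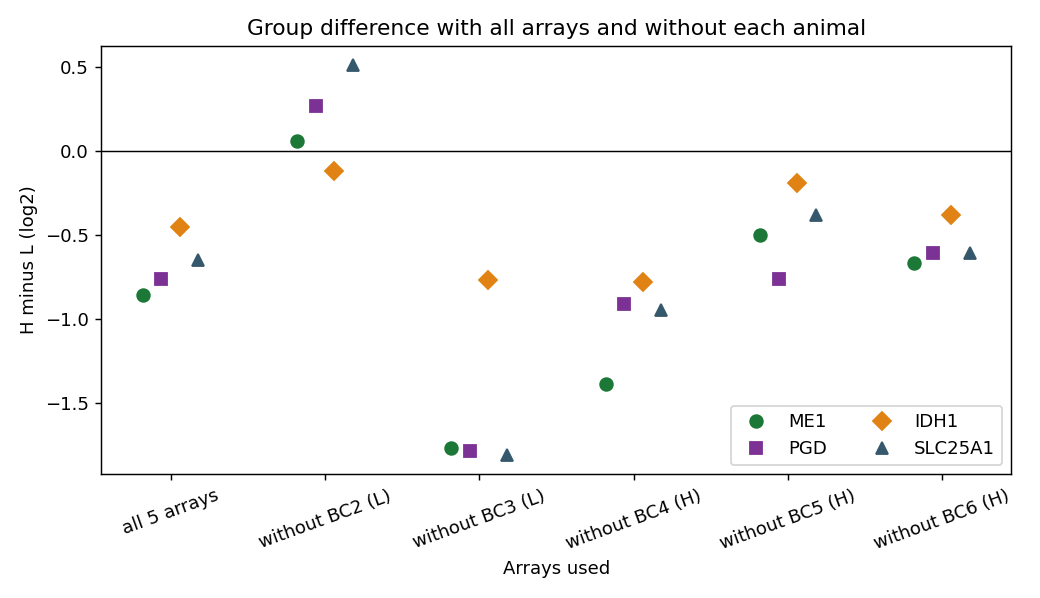
Difference H minus L (log2, vertical axis) of the 4 genes, 1 symbol per gene, with all 5 arrays and without each animal in turn (horizontal axis). ME1, PGD and SLC25A1 lie above 0 without BC2, at 0.06, 0.27 and 0.51, and all 4 genes lie below 0 in the other cases.

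The genes varied more across the animals than most genes on the array. Among 5775 genes above the floor on all arrays, the range over the 5 animals had a median of 0.60. ME1, at 2.48, had a wider range than 97.3% of these genes, SLC25A1, at 2.34, than 96.7%, PGD, at 2.09, than 95.3% and IDH1, at 1.28, than 84.9%. On a linear scale, the highest animal exceeded the lowest by 5.57-fold in ME1, 5.06-fold in SLC25A1, 4.26-fold in PGD and 2.44-fold in IDH1.

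Each pair of the 4 genes was compared over the 10 pairs of animals, and of these 60 comparisons 51 (85.0%) had the animals in the same order in both genes. Against 5774 other genes above the floor, the median for each of the 4 was 5 of 10 pairs in the same order, and 12.7% to 17.8% of those genes matched in at least 8. ME1 and IDH1 ordered all 10 pairs of animals alike, from BC2 through BC4, BC3 and BC6 to BC5. SLC25A1 matched each of them in 9 pairs, differing only in the order of BC3 and BC6. PGD matched ME1 and IDH1 in 8 pairs and SLC25A1 in 7, and all of its departures lay among BC3, BC5 and BC6. With 5 animals no correlation and no p-value is given, and the values of a single animal, BC2, enter 4 of the 10 pairs. Without BC2 or BC4 the share of animal pairs in the same order was 75.0%, and without BC3, BC5 or BC6 it was 91.7%.

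Relative to its own mean over the 5 animals, BC2 lay 1.43 higher in ME1, 1.48 in PGD and 1.55 in SLC25A1, but 0.59 in IDH1. BC4 lay 0.73 higher in ME1, 0.47 in IDH1 and 0.35 in SLC25A1, and at the mean in PGD. BC5 lay at -1.05 in ME1, -0.79 in SLC25A1, -0.69 in IDH1 and -0.30 in PGD. BC4 was thus above the mean in 3 of the 4 genes, while in PGD only BC2 stood clearly above it.

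**Figure D3:**
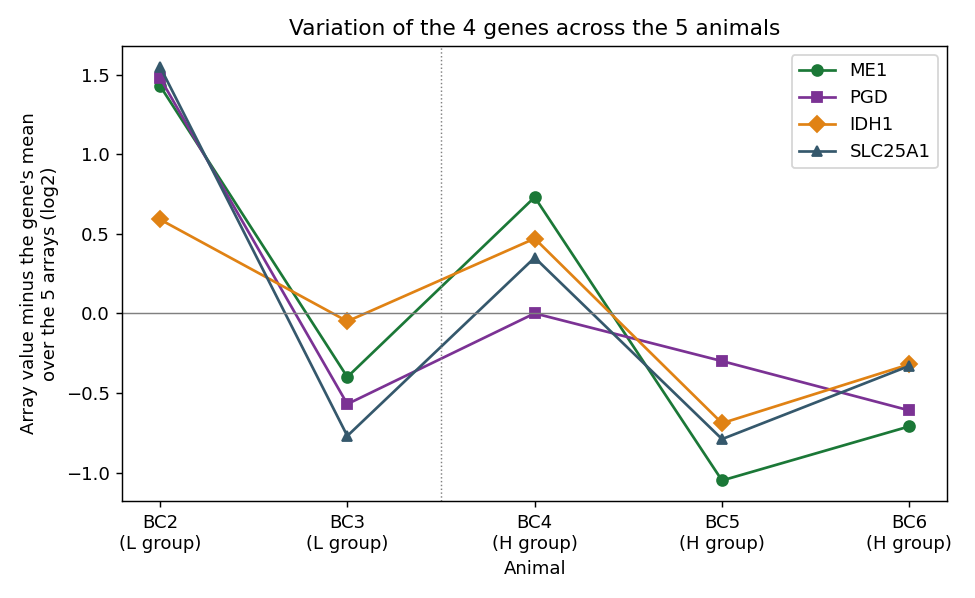
Array value minus the gene's own mean over the 5 arrays (log2, vertical axis) for each animal (horizontal axis), 1 line per gene, with the L animals left and the H animals right of the dotted line. Every gene peaks on BC2, at 0.59 to 1.55, and has its next highest value on BC4, at 0.00 to 0.73.

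The pattern of BC2 highest and BC4 next was looked for in all genes after it had been seen in these 4. BC2 was highest in 22.3% of the 5831 genes, with or without BC4 next to it. Of 5774 other genes above the floor, 166 (2.87%) ordered all 5 animals exactly as ME1 and IDH1 did, 86 (1.49%) as SLC25A1 and 53 (0.918%) as PGD. An order shared in full was thus uncommon on these arrays but not particular to NADPH and citrate supply.

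For each gene, the 3 genes with the closest profile were found by the root mean square distance between values centred on each gene's mean over the 5 animals. Closest to ME1 were PPP1R1A, an inhibitor of protein phosphatase, at a distance of 0.0733, HSD17B12, the ketoacyl-CoA reductase of FA elongation, at 0.141, and AQP11, an aquaporin, at 0.25, where the spread of ME1 itself was 0.931. PPP1R1A had values of 9.77 and 7.76 in the L animals BC2 and BC3, and 9.04, 7.28 and 7.67 in the H animals BC4, BC5 and BC6, and so repeated both the order of ME1 and nearly its steps. SLC25A1 was at place 13 by distance to ME1 (0.318), PGD at place 56 (0.475) and IDH1 at place 62 (0.481).

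Closest to IDH1 were POR, the flavoprotein that passes electrons from NADPH to cytochrome P450 enzymes, at 0.0421, PRDX3, a mitochondrial peroxiredoxin, at 0.0589, and ALDH7A1, an aldehyde dehydrogenase, at 0.0857, where the spread of IDH1 was 0.482. POR had values of 9.37 and 8.72 in the L animals BC2 and BC3, and 9.26, 8.04 and 8.54 in the H animals BC4, BC5 and BC6. All of these genes ordered the animals as IDH1 did. Closest to PGD were PM20D2 (0.105), NAP1L5 (0.124) and RUNDC3B (0.133), where the spread of PGD was 0.773. These genes too were carried by BC2, which lay above each other animal by at least 1.14. Closest to SLC25A1 were NIPSNAP1 (0.184), ISLR (0.194) and again PM20D2 (0.214), with PGD at place 17 (0.310) and ME1 at place 18 (0.318). IDH1 lay at place 137 (0.539), with smaller steps between the animals and BC3 and BC6 in the opposite order.

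Beyond the 4 genes, 35 further genes of NADPH and citrate supply and use were listed by route, and 26 had a probe set. RPE, ALDH1L2 and ACACA, the acetyl-CoA carboxylase, were level on all 5 arrays at 2.17 to 2.19, at or near the floor. For ACACA the paper reported lower expression in H by RNA-Seq, with a further L animal. These flat values thus do not show that the transcript was absent or unvarying. Setting the level genes aside left 23 genes with a direction. The mean of H was below that of L in 19 (82.6%) and above it in 4, with a median difference of -0.29, against 49.8% below and a median of 0.00 over 5831 genes. Without BC2 the count was 12 lower and 11 higher, with a median of -0.01, against 51.6% lower over all genes. None of the 23 had an unadjusted p under 0.05 in limma, the smallest being 0.0695. BC2 was highest and BC4 next in 14 of the 23. Among the listed genes without a probe set of that single symbol were PGLS, H6PD, SLC25A10, ACLY, NADK, NADK2 and ACACB, so the enzyme that splits citrate was not measured.

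In the pentose phosphate pathway, TKT, the transketolase, was high in both BC2 and BC4, with 12.80 and 11.78 in the L animals BC2 and BC3, and 12.70, 11.34 and 11.94 in the H animals BC4, BC5 and BC6. TALDO1, the transaldolase, had 12.81 on BC2 and 11.61 to 12.06 on the other animals, a pattern carried by BC2 as in PGD. Their differences were -0.29 (standard error 0.599) and -0.58 (standard error 0.358). RPIA, the ribose phosphate isomerase, which lies on the branch that makes ribose and yields no NADPH, had its highest value on BC6, at 10.32, and its lowest on BC4, at 9.19.

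Around malate, the cytosolic malate dehydrogenase MDH1, which makes the substrate of ME1, had 12.99 and 11.82 in the L animals BC2 and BC3, and 12.25, 11.81 and 11.41 in the H animals BC4, BC5 and BC6. BC2 and BC4 again led, and the difference was -0.58 (standard error 0.508). Its mitochondrial partner MDH2 differed by -0.51 (standard error 0.289) and the mitochondrial pyruvate carrier subunit MPC2 by -0.68 (standard error 0.445), both with the same leading animals. Of the mitochondrial malic enzymes, ME3 had BC2 and BC4 in front too but spanned only 0.60, from 7.87 to 8.47. ME2 was highest on BC3, at 8.68, and lowest on BC4, at 7.96. PC, the pyruvate carboxylase that feeds the mitochondrial pool, was highest on BC4, at 13.32, and differed by 0.02 (standard error 0.323).

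Near IDH1, its mitochondrial counterpart IDH2 stayed between 8.48 and 8.86 and differed by 0.14 (standard error 0.121), with BC2 the lowest animal. ACO1, the cytosolic aconitase, differed by 0.28 (standard error 0.205) in its brightest probe set, while another of its probe sets differed by -0.66, with BC2 and BC4 highest. CS, the citrate synthase that makes the citrate carried by SLC25A1, had 12.76 and 12.20 in the L animals BC2 and BC3, and 12.64, 12.08 and 12.05 in the H animals BC4, BC5 and BC6. It had the leading animals of SLC25A1 in a range of 0.71, where that of SLC25A1 was 2.34. Of the folate enzymes, ALDH1L1, which forms NADPH in the cytosol, was at 10.45 on BC2 and 9.55 on BC4 and at 8.73 to 9.05 on the others. MTHFD1, the other cytosolic folate enzyme with an NADPH step, differed by -0.62 (standard error 0.237, 95% interval -1.34 to 0.09, adjusted p = 1 from limma), and its groups did not overlap, as in 16.7% of the 17556 probe sets whose values differed between arrays.

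Among the genes that use these supplies, FASN had the widest range of the list, 5.20, with 13.79 and 10.66 in the L animals BC2 and BC3, and 13.27, 8.59 and 10.90 in the H animals BC4, BC5 and BC6. ACSS2, which activates acetate, had 9.14, 7.06, 7.74, 6.93 and 6.86 on the same animals in turn. BC2 was highest and BC4 next in FASN, ACSS2, ELOVL6 and SCD alike. For each of these genes the paper reported lower expression in H by RNA-Seq, with the further L animal. Several listed supply genes had other leading animals, such as BC6 in IDH2 and RPIA, BC3 in ME2 and BC4 in PC.

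**Figure D4:**
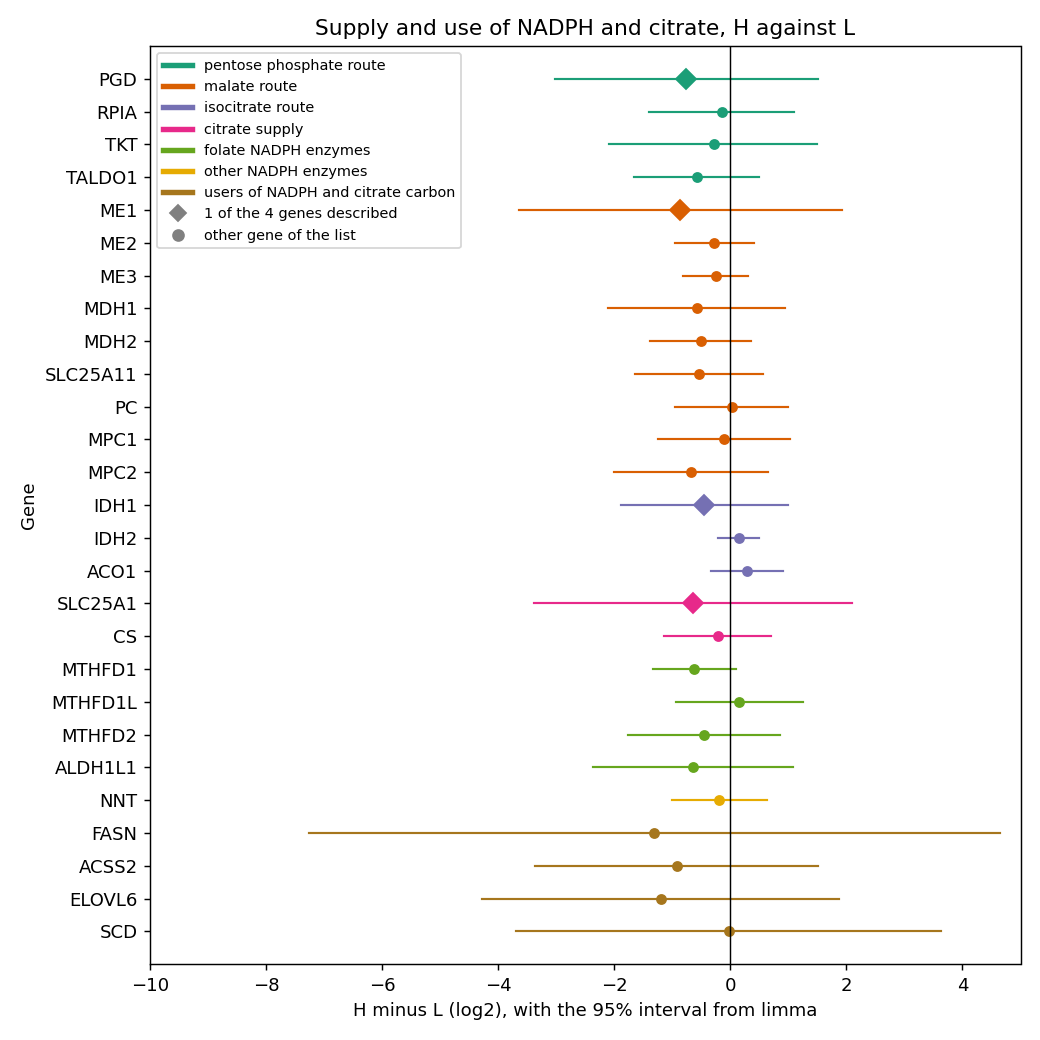
Difference H minus L (log2, horizontal axis) with the 95% interval from limma for the 27 genes of the list whose values differed between arrays, coloured by route, with diamonds for ME1, PGD, IDH1 and SLC25A1. The points of these 4 genes lie at -0.86 to -0.45, and every interval includes 0.

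Markers of cell types and of RNA quality were set beside these values, and their part in the pattern was not tested. Of 10 adipocyte markers 6 had a probe set, and FABP4 was the brightest of them. Their summed level ran from 16.09 to 16.24 in H and from 16.14 to 16.28 in L on the log2 scale. BC2 and BC4 were highest and BC5 lowest in this sum, within a range of only 0.19. Within the list, ADIPOQ, the adiponectin gene, was at 11.82 and 10.52 in the L animals BC2 and BC3, and 12.20, 9.09 and 10.92 in the H animals BC4, BC5 and BC6, whereas LIPE stayed between 12.12 and 12.40. BC5 was the highest animal in FABP4 and LIPE, and BC6 in LEP. Of the 6 measured adipocyte markers, 0 had BC2 highest and BC4 next, against 8.37% of the 5831 genes. With so few markers this count cannot show a departure from that share. ADIPOQ and PNPLA2 had the same leading animals in reverse, BC4 highest and BC2 next, and the other markers had other leading pairs. Of 7 skeletal muscle markers 5 had a probe set, with summed levels of 4.95 and 6.66 in the L animals BC2 and BC3, and 5.10, 8.78 and 4.78 in the H animals BC4, BC5 and BC6, so that BC3 and BC5 were the high ones. BC5, with the highest sum, was the lowest animal in ME1, IDH1 and SLC25A1. BC6, with the lowest sum, had a lower ME1 value than BC3 and the lowest PGD value of all. MYH2, a fast muscle myosin, was at the floor on BC2 and BC6 and at 7.84 on BC5. All 6 endothelial markers had a probe set, and their summed level was 13.04 on BC2 and 13.28 to 14.16 on the other animals. The 5 measured of 7 macrophage markers ran from 8.42 to 10.51 in H and from 9.16 to 9.62 in L, with BC6 highest, and MARCO was at the floor on all arrays. The 3 measured of 4 smooth muscle markers ran from 12.54 to 13.57 in H and from 11.91 to 13.15 in L, and the 3 measured of 5 fibroblast markers from 14.29 to 15.33 and from 14.79 to 14.95, with COL3A1 at the floor. The 6 liver markers ran from 12.21 to 12.58 in H and from 11.32 to 11.99 in L, a sum set by APOA1, so that H lay above L. Of 5 lymphocyte markers 3 had a probe set, all at the floor, and HBB and ALAS2 of the red cell lineage summed to 9.01 to 9.43 in H and 9.20 in L.

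The control probe sets for the ends of GAPDH, whose difference between the 3′ and the 5′ end rises as RNA breaks down, gave 1.52 and 1.82 in the L animals BC2 and BC3, and 1.90, 2.49 and 1.81 in the H animals BC4, BC5 and BC6. Those for actin gave 4.06, 4.77, 4.03, 4.80 and 3.85 on the same animals in turn. BC5, lowest in ME1, IDH1 and SLC25A1, had the largest difference in both, and also in a further control set for each gene, at 2.20 and 5.04. BC2 had the smallest for GAPDH in the former set, and BC6 in the further one, at 1.89.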

How the data were processed

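Backfat RNA of 5 pigs was measured on Affymetrix porcine arrays, 1 per animal. The authors generated expression data with GCOS and deposited log2 values per probe set, adjusted for background and normalized between arrays. The methods name GCRMA and the submitters' processing notes RMA, so which was used is not settled, and versions are not given in the sources used here. GEO's labels give only the animal titles, and the groups follow the study's key to them.

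Of 24123 probe sets, 124 controls were left out and 23999 were tested as H minus L with limma 3.58.1 in R 4.3.3, without covariates, with Benjamini-Hochberg adjustment over all of them. The limits were those of the study's own contrast, 0.01 for p, 0.1 after adjustment and 1.2 for the fold. A table of probe annotation gave 1 symbol for 10069 probe sets, several for 198 and none for 13732, and the brightest probe set stood for a gene with several. Probe sets of listed genes that differed between arrays had the same sign within a gene, except in ACO1. Values within 1e-06 of each other on all arrays were taken as level, as in 6443 probe sets (26.8%). The members, lists and tests were chosen with earlier results of these data known. All member probe sets are named, with listed genes of their routes and the 3 nearest profiles of each member. Not every listed gene is printed. The steps were tested on simulated data. The labels name the animals as separate samples, and the number of arrays limits the precision. Alternatives were other scalings, filters, variance models and probe set choices, array weights and leaving out each animal.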

Additional observations from a re-analysis of the deposited data

How the results depend on the processing

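The threshold was passed by 0 probe sets with all 5 arrays under each scaling, filter, variance model and weighting tried, by 0 to 286 without 1 animal (286 without BC3 and 160 without BC2), and 762 had an unadjusted p under 0.05. Under these alternatives ME1, PGD, IDH1 and SLC25A1 had 52 results, with the brighter probe set or the mean of both for ME1. Of these results, 49 kept a lower mean in H and 3 turned, all without BC2. None passed the threshold, and the lowest adjusted p from limma was 0.427. Without 1 animal the difference ran from -1.77 to 0.06 in ME1, from -1.79 to 0.27 in PGD, from -0.78 to -0.12 in IDH1 and from -1.81 to 0.51 in SLC25A1. Where 1 L array was left, its spread was assumed to be that of the H arrays. Of the 23 other genes with a direction, 12 to 19 had a lower mean in H without 1 animal, with 12 lower and 11 higher without BC2, against 51.6% lower over all genes. The mean of a gene's probe sets in place of the brightest gave 20, as did median centring, which moved the share of all genes lower in H from 49.8% to 59.9%. The share of animal pairs in the same order was 85.0% under both scalings. No paired analysis was possible because no animal number occurs in both groups. Leaving out level probe sets, and leaving out animals for the order, were choices made once the data had been seen. Fewer arrays enter the fits without 1 animal, and the cause was not tested otherwise.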
